A study of Rattus norvegicus with 20 samples.

Results

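The genes described are the PPAR receptors Ppara, Ppard and Pparg with their coactivator gene Ppargc1a, which make up 4 of the 24059 Ensembl IDs in the count table. They were chosen by ID, namely ENSRNOG00000021463 for Ppara, ENSRNOG00000000503 for Ppard, ENSRNOG00000008839 for Pparg and ENSRNOG00000004473 for Ppargc1a. None of the 4 IDs was missing, and all 4 passed the filter on low counts that left 14293 genes for testing. RNA of heart ventricle was sequenced from 20 male Sprague Dawley rats, given in the labels as 9 weeks old, with 5 rats in each of 4 groups. WT control and WT diabetic rats had an intact Vegfb gene. Vegfb KO control and Vegfb KO diabetic rats carried a lacZ insertion that disrupts Vegfb in the whole body, made with zinc-finger nucleases and named KO here. Diabetic rats of both genotypes received streptozotocin (STZ), which kills the beta cells of the pancreas, by vein at 55 mg/kg and were sampled on day 4 of diabetes, while the controls were littermates.

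PPARs are nuclear receptors that are activated by fatty acids and their derivatives, pair with a retinoid X receptor and bind repeats of a short DNA motif near their target genes. In the heart, PPARα is known as a main activator of genes for fatty acid uptake and oxidation, PPARδ acts on many of the same genes, and PPARγ is best known for driving fat cell formation and lipid storage. Ppargc1a encodes PGC-1α, which binds these receptors and other transcription factors and promotes mitochondrial biogenesis and oxidative metabolism.

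The count per library ranged from 7220469 to 26664479. Its median was 21777484 in WT control, 21669304 in WT diabetic, 20712821 in KO control and 20168819 in KO diabetic rats. A pair of diabetic libraries stood apart. In WT diabetic replicate 2 a single ID, ENSRNOG00000065867, took 23.3% of all counts, and in KO diabetic replicate 1 it took 25.5%, against at most 5.28% in the remaining 18 libraries. This ID was singled out after its values were seen. KO diabetic replicate 1 also had the lowest total, and WT control replicate 2 followed with 7314287. Levels are given as CPM, counts scaled by library size, where the sizes were adjusted by the TMM method for such differences in composition. CPM is not divided by gene length, so levels were compared between groups and not between genes. The files list IDs without gene names, so the level of Vegfb and the markers of heart and other cell types were not analysed here. The genotype and the tissue of these libraries therefore rest on the labels. For its rats the paper reports genotyping by PCR of ear DNA, and Vegfb that quantitative RT-PCR did not detect in KO ventricles.

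Ppara, the receptor gene most tied to cardiac fatty acid oxidation, was lower in diabetic than in control hearts of both genotypes. In WT control rats 1 to 5, Ppara was at 33.2, 27.3, 29.0, 34.8 and 33.4 CPM. In WT diabetic rats 1 to 5 it was at 17.7, 19.5, 17.6, 15.4 and 15.8 CPM. Every WT diabetic heart was thus below every WT control heart, with means of 17.2 ± 1.64 and 31.5 ± 3.23 CPM (SD, n = 5 each). In KO control rats 1 to 5, Ppara was at 28.9, 26.1, 30.1, 31.8 and 33.2 CPM. In KO diabetic rats 1 to 5 it was at 13.4, 14.0, 17.7, 17.4 and 23.2 CPM. The groups again did not overlap, with means of 17.2 ± 3.91 CPM in KO diabetic and 30.0 ± 2.72 CPM in KO control hearts (SD, n = 5 each), although KO diabetic replicate 5 lay nearer to the controls than the other diabetic hearts did.

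**Figure D1:**
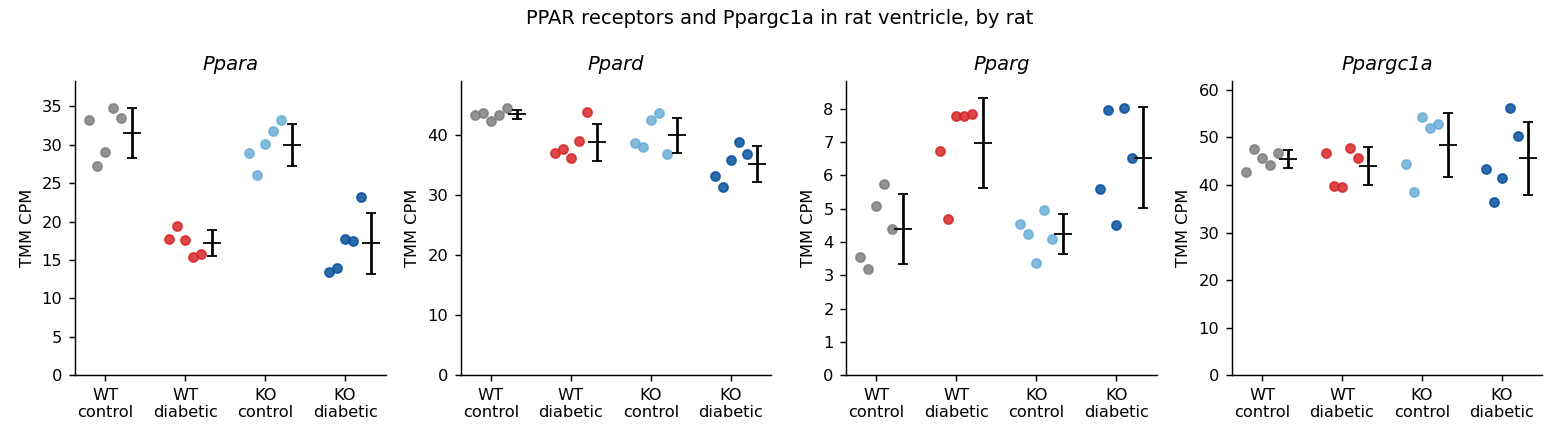
Level of each gene in every rat, in TMM CPM on the vertical axis, by group on the horizontal axis. Each point is 1 rat, and the bar beside the points gives the mean and SD of 5 rats. Diabetic hearts lie below the control hearts for Ppara (17.2 against 31.5 CPM in WT) and mostly above them for Pparg, while the groups overlap for Ppard and Ppargc1a.

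In WT hearts Ppara fell to 0.542 of the control level (95% confidence interval 0.460 to 0.640), a log2 fold change of -0.88 (SE, the standard error, 0.12, adjusted p = 1.32e-05 by the quasi-likelihood test of edgeR, Benjamini-Hochberg adjusted over the 14293 genes). A gene was called at an adjusted p under 0.05 together with an absolute log2 fold change above 0.27. By this rule 7.07% of all genes were called lower and 6.06% higher in WT diabetic hearts, and 5.33% had WT diabetic values all below the WT control values. By size of the fall, Ppara ranked 161 among the 1010 genes called lower, beside 866 called higher. With limma voom and sample quality weights 1470 genes were called lower and 1374 higher. In KO hearts Ppara fell to 0.580 of the control level (0.491 to 0.686), a log2 fold change of -0.78 (SE 0.12, adjusted p = 1.08e-04 by the same test). Here 4.21% of all genes were called lower, 3.63% were called higher, and 4.76% had diabetic values all below the control values. Ppara ranked 111 among the 602 genes called lower in KO hearts, beside 519 called higher. Without KO diabetic replicate 3 the numbers were 352 lower and 291 higher, and the call of Ppara held (log2 fold change -0.79, adjusted p = 5.07e-04 by the quasi-likelihood test of edgeR). Without both libraries that stood apart, the change in Ppara was -0.93 in WT and -0.74 in KO hearts on the log2 scale, and both calls held (adjusted p = 1.19e-05 and 2.39e-04 by the quasi-likelihood test of edgeR). In whole ventricle, fewer cells of a type and less RNA per cell cannot be told apart.

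Pparg, the receptor gene of adipogenesis, was the least counted of the 4, with 24 to 193 counts in a library. In WT control rats 1 to 5 it was at 3.54, 3.19, 5.08, 5.76 and 4.40 CPM. In WT diabetic rats 1 to 5 it was at 6.74, 4.69, 7.80, 7.77 and 7.85 CPM. The groups overlapped through WT diabetic replicate 2, a library that stood apart, which lay below WT control replicates 3 and 4, whereas the other WT diabetic hearts were above every control. In KO control rats 1 to 5, Pparg was at 4.53, 4.25, 3.36, 4.96 and 4.11 CPM. In KO diabetic rats 1 to 5 it was at 5.59, 7.96, 4.52, 8.03 and 6.52 CPM. Here KO diabetic replicate 3 lay within the range of the controls and the other diabetic hearts lay above it. Mean Pparg was 4.39 ± 1.06 CPM in WT control, 6.97 ± 1.36 in WT diabetic, 4.24 ± 0.592 in KO control and 6.53 ± 1.52 CPM in KO diabetic hearts (SD, n = 5 each).

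Pparg rose 1.57-fold with diabetes in WT hearts, a log2 fold change of 0.65 (SE 0.18, adjusted p = 0.0169 by the quasi-likelihood test of edgeR). In KO hearts it rose 1.55-fold, a log2 fold change of 0.63 (SE 0.18, adjusted p = 0.0317 by the same test). Both were called, opposite in direction to Ppara. WT diabetic values all above the control values were found for 4.04% of genes and the like in KO hearts for 3.46%, and Pparg was in neither share. Without both libraries that stood apart, the change in Pparg was 0.75 in WT and 0.66 in KO hearts on the log2 scale (adjusted p = 0.00551 and 0.0193 by the same test). The calls were close to the threshold. Leaving out WT control replicate 1 alone ended the call in WT (log2 fold change 0.58, adjusted p = 0.0536). In KO hearts the call ended without KO control replicate 2 (0.63, adjusted p = 0.0621), replicate 3 (0.56, adjusted p = 0.0836) or replicate 5 (0.62, adjusted p = 0.0678), and without KO diabetic replicate 2 (0.54, adjusted p = 0.0946) or replicate 4 (0.55, adjusted p = 0.0902), all by the quasi-likelihood test of edgeR. For the mean of both genotypes, the log2 fold change of Pparg was 0.64 (SE 0.13, adjusted p = 6.86e-04) and that of Ppara was -0.83 (SE 0.082, adjusted p = 7.56e-08), where 7.91% of all genes were called higher and 8.3% lower.

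Ppard, which encodes the widely expressed member of the family, was not called in any comparison. It was between 42.4 and 44.6 CPM in WT control, 36.2 and 43.9 in WT diabetic, 36.9 and 43.7 in KO control, and 31.4 and 38.8 CPM in KO diabetic hearts. The means were 43.5 ± 0.778, 38.8 ± 3.04, 40.0 ± 2.94 and 35.2 ± 2.97 CPM in that order (SD, n = 5 each), and the diabetic and control ranges overlapped in both genotypes. The log2 fold change with diabetes was -0.16 in WT (SE 0.073, adjusted p = 0.145) and -0.18 in KO hearts (SE 0.074, adjusted p = 0.147, the quasi-likelihood test of edgeR), and neither was called. For the mean of both genotypes it was -0.17 with an adjusted p of 0.0177, but its size was under the cut-off of 0.27, so it was not called.

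Ppargc1a, the coactivator gene, was also not called in any comparison. It was between 42.8 and 47.5 CPM in WT control, 39.5 and 47.8 in WT diabetic, 38.5 and 54.3 in KO control, and 36.4 and 56.2 CPM in KO diabetic hearts. The means were 45.4 ± 1.92, 43.9 ± 3.98, 48.4 ± 6.73 and 45.6 ± 7.75 CPM in that order (SD, n = 5 each), and the ranges overlapped. The log2 fold change with diabetes was -0.045 in WT (95% confidence interval -0.26 to 0.17) and -0.088 in KO hearts (-0.31 to 0.13). These intervals did not hold the log2 fold change of Ppara in the same genotype. With limma voom and sample quality weights together the WT value was 0.0035, of the other sign and also not called.

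**Figure D2:**
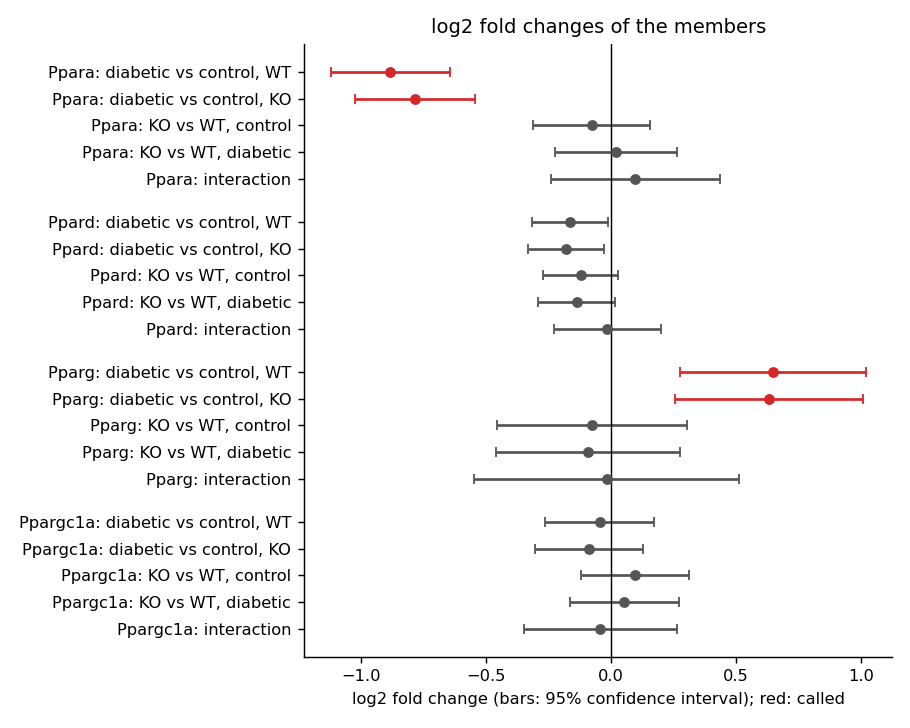
Log2 fold change of each gene in each comparison other than the mean of both genotypes, with the 95% confidence interval as a bar, from the quasi-likelihood model fitted to all 20 libraries. Red marks a called change. The called changes drawn are the falls of Ppara (-0.88 and -0.78) and the rises of Pparg (0.65 and 0.63) with diabetes.

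The comparison of genotypes asked whether loss of Vegfb altered these genes in control or in diabetic hearts. None of the 4 was called. Between control hearts the log2 fold change of KO against WT was -0.078 for Ppara, -0.12 for Ppard, -0.076 for Pparg and 0.096 for Ppargc1a. Few genes were called at all in this comparison, 4 of 14293 or 0.028%. Between diabetic hearts the values were 0.020 for Ppara, -0.14 for Ppard, -0.092 for Pparg and 0.054 for Ppargc1a, where 6 of 14293 genes or 0.042% were called. That number depended on the test and on a single library, with 65 genes by DESeq2, 38 by the likelihood ratio test, 30 by limma voom with sample quality weights and 181 without WT diabetic replicate 3, and none of the 4 genes was called in any of these. Without both libraries that stood apart, KO against WT in diabetic hearts was 0.12 for Ppara and -0.17 for Pparg, also not called. With each library left out in turn, Ppara ranged from -0.13 to 0.095, Pparg from -0.20 to 0.027 and Ppargc1a from -0.040 to 0.13. The sign of these 3 genes thus depended on single libraries, and none was called. Ppard was thus the receptor gene with the lowest unadjusted p between genotypes, 0.108 in control and 0.0743 in diabetic hearts (the quasi-likelihood test of edgeR, adjusted p = 1.00 and 0.607).

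The interaction of genotype and diabetes tested whether the change with diabetes differed between KO and WT hearts. Its log2 value was 0.098 for Ppara (95% confidence interval -0.24 to 0.44), -0.016 for Ppard (-0.23 to 0.20), -0.016 for Pparg (-0.55 to 0.51) and -0.042 for Ppargc1a (-0.35 to 0.26). None was called, as for 0% of all genes. Across all genes both tests of edgeR (quasi-likelihood and likelihood ratio), DESeq2 and limma voom with sample quality weights each called 0. In the quasi-likelihood test 600 of 14293 genes had an unadjusted p under 0.05. That is less than the share of 0.05 expected by chance alone. Without both libraries that stood apart the interaction was 0.20 for Ppara and -0.092 for Pparg, and neither was called. With each of the 20 libraries left out in turn, its sign changed in 1 fit for Ppara, 4 for Ppard, 9 for Pparg and 2 for Ppargc1a. None of these values was called. The interval of Pparg was the widest of the 4 and reached nearly the size of its change with diabetes. Smaller differences in its response, in either direction, therefore lie within the interval and cannot be told from 0 here. How far depth and number of rats set this width was not tested.

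**Figure D3:**
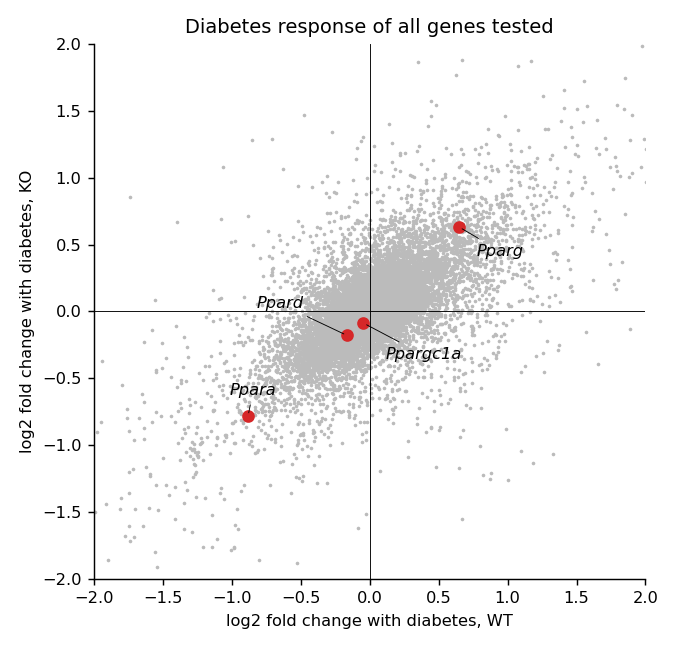
Log2 fold change with diabetes in WT (horizontal axis) and KO hearts (vertical axis) for 14221 genes in grey, with 72 genes beyond 2 in either direction not drawn. Red points are the 4 genes, with Ppara at -0.88 and -0.78 and Pparg at 0.65 and 0.63, while Ppard and Ppargc1a lie near the origin.

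Ratios of counts within a library, computed with 0.5 added to each count, do not depend on how libraries are scaled to each other. The Ppargc1a to Ppara count ratio in WT control rats 1 to 5 was 1.29, 1.74, 1.58, 1.27 and 1.40. In WT diabetic rats 1 to 5 it was 2.63, 2.04, 2.24, 3.10 and 2.89. All WT diabetic hearts were above all WT controls. In KO control rats 1 to 5 the ratio was 1.54, 1.47, 1.80, 1.64 and 1.59, and in KO diabetic rats 1 to 5 it was 3.22, 2.60, 2.34, 3.22 and 2.17. The groups were again apart. The mean ratio was 1.45 ± 0.201 in WT control and 2.58 ± 0.440 in WT diabetic, 1.61 ± 0.124 in KO control and 2.71 ± 0.491 in KO diabetic hearts (SD, n = 5 each). The Ppara to Ppard ratio was 0.724 ± 0.0706 in WT control and 0.448 ± 0.0664 in WT diabetic, 0.753 ± 0.0848 in KO control and 0.485 ± 0.0864 in KO diabetic hearts. The Ppara to Pparg ratio moved most, from 7.40 ± 1.54 to 2.60 ± 0.893 in WT and from 7.15 ± 1.25 to 2.75 ± 0.928 in KO hearts (SD, n = 5 each).

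On the log2 scale, the Ppargc1a to Ppara ratio differed by 0.82 between diabetic and control WT hearts and by 0.74 in KO hearts. The Ppara to Ppard ratio differed by -0.70 and -0.64, and the Ppara to Pparg ratio by -1.54 and -1.43. All of these 6 differences had a p of 0.00794 (exact permutation test, two-sided), the smallest this design can give, and the Benjamini-Hochberg adjusted p over the 6 tests was also 0.00794. The ratios share Ppara, whose own groups did not overlap, so they are not independent of each other. Of the 14292 other genes tested, 66.4% in WT and 56.3% in KO hearts had Ppara ratios that were all lower in diabetic than in control libraries. The separation is therefore common to most genes set against Ppara and is not particular to these pairs. Without WT diabetic replicate 2 the differences in WT were 0.90, -0.76 and -1.72, and without KO diabetic replicate 1 those in KO were 0.67, -0.58 and -1.39 in the same order, with an adjusted p of 0.0159 each (exact permutation test).

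**Figure D4:**
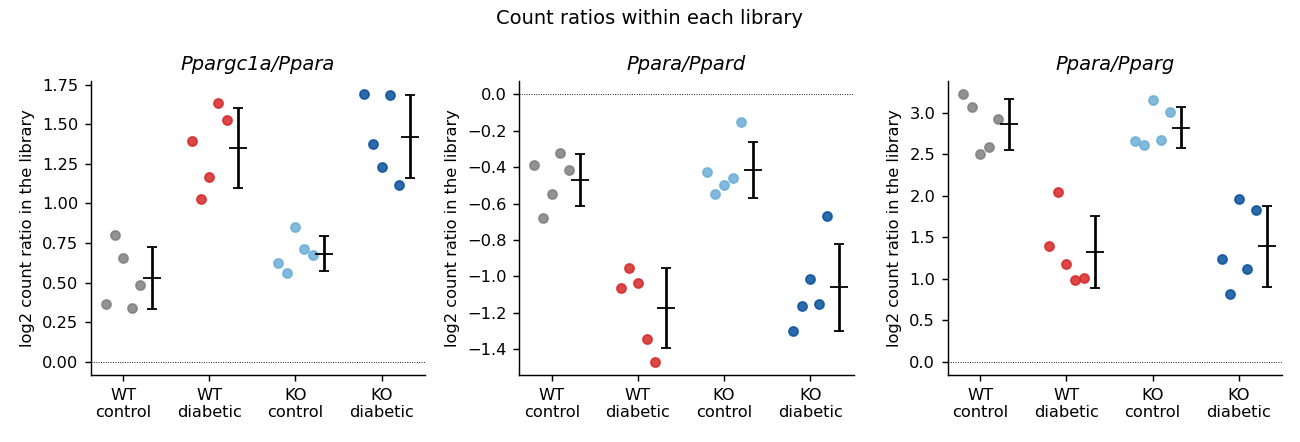
Log2 ratio of 2 genes' counts within each library (vertical axis) by group (horizontal axis), with each point a rat and the bar the mean and SD of 5 rats. Diabetic and control hearts are apart in each genotype for all 3 ratios, with the widest gap for Ppara to Pparg (-1.54 in WT).

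Whether the genes varied together from rat to rat was examined after removing the group means from log2 CPM, over all 20 hearts and the 6 pairs of genes. Ppard and Ppargc1a had the highest correlation, with Pearson's r = 0.643 (permutation p = 0.0174) and Spearman's rho = 0.583 (permutation p = 0.0348). After Benjamini-Hochberg adjustment over the 6 pairs the p was 0.104 for r and 0.209 for rho, so the relation did not pass. Without the 2 hearts farthest from the median of Ppard, r was 0.604, and without the libraries that stood apart it was 0.638. Ppara had r = 0.362 with Ppargc1a (permutation p = 0.254) and 0.292 with Ppard (permutation p = 0.333). Spearman's rho was 0.262 (permutation p = 0.323) and 0.266 (permutation p = 0.312), and r without the 2 farthest hearts was 0.290 and 0.148. The remaining 3 pairs, each with Pparg, had r between -0.066 and 0.107 and adjusted p of 0.823. Ppara and Pparg, which moved in opposite directions with diabetes, were among them, with r = -0.066 (permutation p = 0.823) and rho = -0.089 (permutation p = 0.741) between rats, and r = -0.205 without the 2 farthest hearts.

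Over the same deviations of 20 hearts, the gene most like Ppara of all genes tested was ENSRNOG00000026833 (Pearson's r = 0.856), and the gene most like Ppard was ENSRNOG00000010473 (r = 0.812). For Pparg it was ENSRNOG00000007134 (r = 0.885) and for Ppargc1a ENSRNOG00000033101 (r = 0.850). Each is the highest value over all genes tested and is given as a description.

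To show the regulatory sequence at the starts of these genes, promoters of RefSeq on build GRCr8 were matched by symbol, which found 4 windows for 3 of the 4 genes, Ppara, Pparg and Ppargc1a. Each window runs from 250 bases before to 50 bases after a start, 5′ to 3′ on the + strand. Ppara is shown as the gene that fell, Pparg with its 2 listed starts as the gene that rose, and Ppargc1a as a gene with no called change. Capitals mark the cAMP response element TGACGTCA.
Ppara, chr7:118712357-118712656: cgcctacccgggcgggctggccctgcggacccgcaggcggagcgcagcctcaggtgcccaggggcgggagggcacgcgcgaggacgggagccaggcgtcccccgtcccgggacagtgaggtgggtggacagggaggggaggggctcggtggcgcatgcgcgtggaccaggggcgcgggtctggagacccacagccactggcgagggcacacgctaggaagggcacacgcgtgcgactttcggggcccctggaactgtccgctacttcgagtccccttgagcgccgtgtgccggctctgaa
Pparg start 1, chr4:150096808-150097107: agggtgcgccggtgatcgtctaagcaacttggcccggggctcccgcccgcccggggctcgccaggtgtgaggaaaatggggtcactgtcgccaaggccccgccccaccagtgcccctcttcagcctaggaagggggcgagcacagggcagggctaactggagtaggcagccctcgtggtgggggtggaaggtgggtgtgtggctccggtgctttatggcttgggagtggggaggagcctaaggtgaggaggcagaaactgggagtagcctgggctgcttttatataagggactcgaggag
Pparg start 2, chr4:150154522-150154821: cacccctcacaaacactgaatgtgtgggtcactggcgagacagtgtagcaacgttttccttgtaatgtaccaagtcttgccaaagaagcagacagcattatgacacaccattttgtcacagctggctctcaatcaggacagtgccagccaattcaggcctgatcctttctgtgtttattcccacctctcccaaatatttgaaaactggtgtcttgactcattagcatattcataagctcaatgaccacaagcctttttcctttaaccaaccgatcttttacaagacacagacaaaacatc
Ppargc1a, chr14:63634058-63634357: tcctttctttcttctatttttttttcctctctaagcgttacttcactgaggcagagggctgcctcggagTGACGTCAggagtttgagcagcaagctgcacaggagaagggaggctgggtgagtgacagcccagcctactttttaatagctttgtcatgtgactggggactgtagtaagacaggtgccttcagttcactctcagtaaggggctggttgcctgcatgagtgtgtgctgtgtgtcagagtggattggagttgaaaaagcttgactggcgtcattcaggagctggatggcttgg

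The windows were searched on both strands for 3 motifs. A direct repeat of AGGTCA with 1 base between, AGGTCANAGGTCA, the form of element that PPARs bind, was in 18 of all 33469 promoter windows of this length (0.0538%) and in none of these 4. The single motif AGGTCA, which is part of that repeat, was in 16.2% of all windows and in none of these 4. The cAMP response element TGACGTCA was in 1.83% of all windows and, of these 4, in that of Ppargc1a, starting 181 bases before the start of the gene. A match is a description of letters and not of binding. The windows differed in base composition. The Ppara window had 73.7% G and C with 32 CpG, the Pparg windows 64.7% with 14 CpG and 43.7% with 3 CpG, and the Ppargc1a window 50.3% with 4 CpG, against a median of 51.7% and 7 CpG over all windows. Counts were per gene, so the rise of Pparg could not be assigned to either of its starts.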

How the data were processed

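RNA from heart ventricle of 20 rats was analysed, with groups and replicate numbers taken from the labels. The authors deposited estimated counts per Ensembl gene ID from directional paired-end libraries, and the submitters' processing notes name kallisto, edgeR, DESeq2 and build mRatBN7.2, without versions. The methods state quantification against the rat reference transcriptome at the transcript level, and a filter on low counts is not given in the sources used here. Of 337138 nonzero values 0 were exactly whole and 9.26% lay within 0.01 of a whole number, so the estimated counts were rounded. Such estimates can divide reads between similar transcripts.

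Counts were filtered with filterByExpr by group, TMM normalized and fitted with edgeR 4.0.16 (quasi-likelihood, robust) in R 4.3.3, as a group-means model of all 20 libraries. Calls required an adjusted p (Benjamini-Hochberg) under 0.05 and a log2 fold change past 0.27 in either direction, and for the interaction the adjusted p alone. Log2 CPM used a prior count of 2. The code was tested on simulated counts. Ratios, with 0.5 added to each count, were compared by exact permutation with SciPy 1.17.1, and correlations by 100000 permutations within groups. Other settings tried were the likelihood ratio test of edgeR, DESeq2 1.42.0, limma 3.58.1 (voom with sample quality weights), other normalizations and filters, fits of only the libraries compared, a replicate block, both libraries that stood apart left out, and each library left out in turn. For the ratios 1 was added in place of 0.5, and for the correlations DESeq2 size factors were used. The chi-square per gene between libraries of a group was at least 6.23, so none was treated as a duplicate. The libraries with the lowest totals, 7220469 and 7314287, give the least precise values, above all for Pparg.

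The genes, lists and alternatives, including which libraries were left out together, were chosen with earlier results of these data known. The named genes were the 4 members and, for each, the gene with the highest Pearson r of deviations from the group means. ENSRNOG00000065867 was named in addition for its share of the counts, after its values were seen. Of 47357 RefSeq genes at hand 0 carry an Ensembl ID, so the planned lists of PPAR partners and target genes and of cell type markers were not run.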

Additional observations from a re-analysis of the deposited data

Results flagged for a closer look

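In 36 groups of 5 values, the distance of the highest and the lowest library from its neighbour was set against the whole range. By this rule, which marks about 1 in 20 groups by chance, 2 libraries were extreme. Both were marked for their share of the count on ENSRNOG00000065867. That ID was picked as the most counted in KO diabetic replicate 1, so the number marked cannot be set against chance. No extreme library was found in the 28 groups of CPM values and log2 count ratios of the 4 genes. The share of the count on ENSRNOG00000065867 was 23.3% in WT diabetic replicate 2, where the nearest WT diabetic library had 1.84%. It was 25.5% in KO diabetic replicate 1, where the nearest KO diabetic library had 3.85%. The TMM factors of these libraries were 0.729 and 0.694. In them Ppara was at 19.5 and 13.4 CPM, the highest of the WT diabetic and the lowest of the KO diabetic hearts. Pparg was at 4.69 and 5.59 CPM, in WT the lowest of its group. The calls of Ppara and Pparg with diabetes held in both genotypes without these libraries.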

How the results depend on the processing

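Of 250 values under settings other than leaving out a single library, 246 kept their direction and their side of the threshold. Of 540 values with a library left out, 512 did. Most of the 36 results behind these totals did not pass at the main settings, so staying uncalled says little. The fits with a library left out also include libraries that are not part of the comparison. The totals are therefore not a measure of how firm the called changes are. Ppara was called with diabetes in each genotype under every setting run, with log2 fold changes from -0.96 to -0.84 in WT and from -0.92 to -0.71 in KO hearts. Without each library in turn, Pparg ranged from 0.58 to 0.77 in WT and from 0.54 to 0.75 in KO hearts, and its call ended in WT without 1 library and in KO without 5. Values that changed sign were all uncalled. With limma voom and sample quality weights, Pparg between control hearts was 0.0016 and Ppargc1a in WT 0.0035. Without both libraries that stood apart, the correlation was -0.033 for Ppard and Pparg and -0.018 for Pparg and Ppargc1a. With each library left out in turn, KO against WT in diabetic hearts ranged from -0.13 to 0.095 for Ppara, -0.20 to 0.027 for Pparg and -0.040 to 0.13 for Ppargc1a, and in control hearts from -0.15 to 0.048 for Pparg. The interaction ranged from -0.045 to 0.17 for Ppara, -0.056 to 0.033 for Ppard, -0.14 to 0.10 for Pparg and -0.13 to 0.032 for Ppargc1a. Of the other settings, limma voom with sample quality weights gave 0.14 for Ppara between diabetic hearts and an interaction of 0.23 for Ppara and -0.16 for Pparg, and leaving out both libraries that stood apart gave 0.12, 0.20 and -0.092 in that order. The cause of these changes was not tested.

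The deviations of same-numbered libraries correlated between -0.257 and 0.264. Libraries of different numbers were not compared in this way, so whether same-numbered libraries pair was not settled. A replicate block changed no call of the 4 genes, with Ppara at -0.87 in WT and -0.79 in KO hearts. The number of genes called between KO and WT diabetic hearts was 6, against 65 with DESeq2, 38 with the likelihood ratio test, 30 with limma voom and its weights and 181 without WT diabetic replicate 3. Over all single libraries left out it ranged from 2 to 181. In WT diabetic against control hearts it was 1876, against 2844 with limma voom and its weights, and in KO hearts it was 1121, against 643 without KO diabetic replicate 3. Pparg had the lowest counts of the 4 genes, down to 24 in WT control replicate 2 and 28 in KO diabetic replicate 1. How far low counts set the spread of its values was not tested.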
